A study of Mus musculus with 4 samples.

Results

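The genes described here are 49 genes of the core autophagy machinery and of the receptors that carry cargo into it, out of 21938 protein-coding genes of the GENCODE vM21 annotation. They were taken by name, whether or not they had a peak. For each gene, methylated Pontin peaks were looked for within 2.5 kb of the transcription start site (TSS) of any of its transcripts, and the nearest peak was taken where there was none. The study used mouse embryonic fibroblasts (MEFs), described as wild type, kept in normal media or in glucose starvation media. Chromatin was immunoprecipitated (ChIP) with an antibody to Pontin methylated on arginine by the methyltransferase CARM1, and chromatin that was not immunoprecipitated served as input. There were 4 libraries, the methylated Pontin ChIP and the input in each medium, with 1 library each and no replicate. The values below are those of the 4311 peaks called in the ChIP of starved cells, and the ChIP in normal media was not analysed here. They therefore describe where methylated Pontin was found in starved cells and not what starvation changed. A list of peaks holds no expression values, so the fibroblast label could not be checked against marker genes.

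Macroautophagy encloses cytoplasm in a double membrane, the autophagosome, and delivers it to the lysosome. A kinase complex around ULK1 starts the process, a lipid kinase complex around Beclin 1 and VPS34 marks the membrane with phosphatidylinositol 3-phosphate, and WIPI, ATG2 and ATG9 proteins bring in lipid. Ubiquitin-like conjugation then attaches ATG8 proteins (the LC3 and GABARAP families) to the membrane, where cargo receptors bind them. Pontin is an AAA+ ATPase of chromatin-remodelling and acetyltransferase complexes such as TIP60, and the study asked whether its methylated form acts at autophagy genes together with the transcription factor FOXO3a.

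Of the 49 genes, 19 had methylated Pontin at a TSS by this limit, which is 38.8% (95% Wilson interval, 26.4 to 52.8%). Among all protein-coding genes the percentage was 17.1%. The step of the lipid kinase complex (PI3K complex in the plots) stood highest, with a peak at 5 of its 7 genes (Becn1, Pik3r4, Pik3c3, Ambra1 and Nrbf2), and the ATG8 genes stood lowest, with a peak at 0 of 5. In between were 4 of 8 genes of the ATG9, ATG2 and WIPI group, 4 of 11 conjugation genes, 3 of 8 receptor genes, 2 of 5 other factors and 1 of 5 initiation genes. With so few genes a step the intervals were wide, from 35.9 to 91.8% for the lipid kinase complex and from 0 to 43.4% for the ATG8 genes. These 2 intervals overlap, and no step can be told apart from another by them. Wilson intervals here, and Poisson intervals of tag counts below, cover counting error only.

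**Figure D1:**
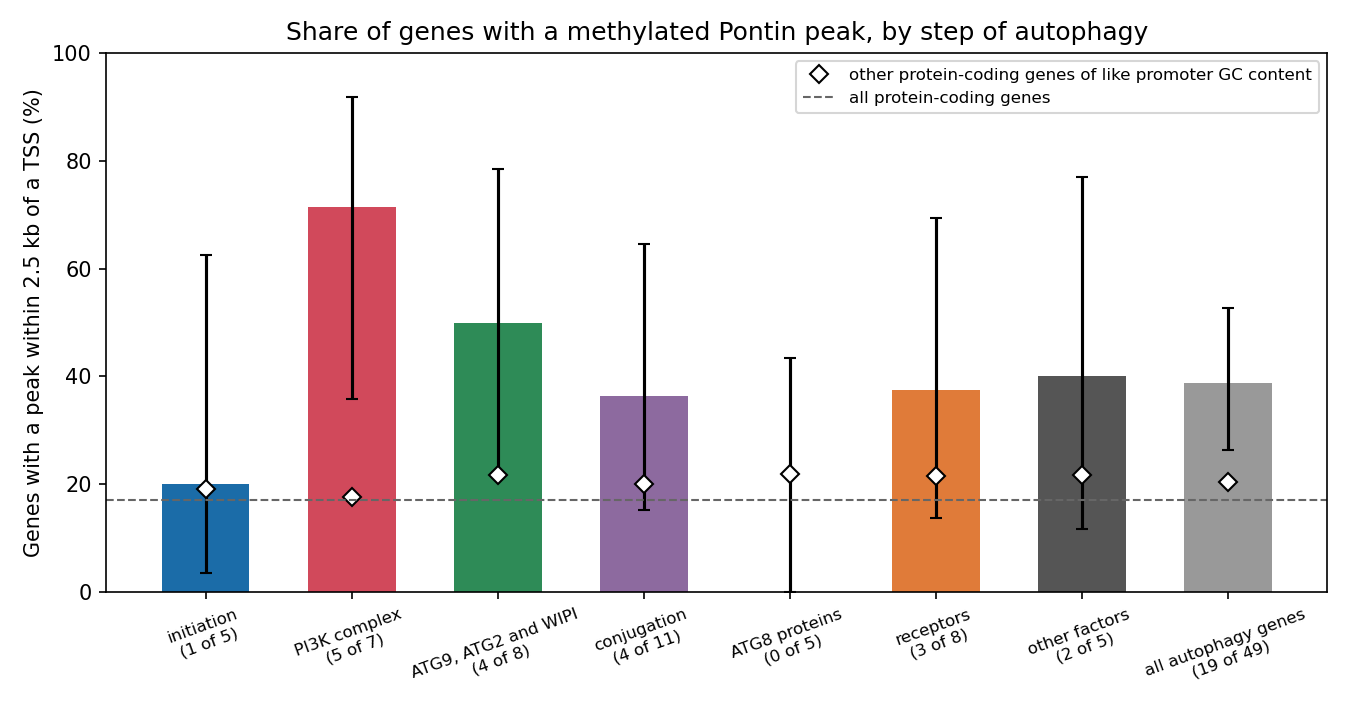
Percentage of the genes of each step with a methylated Pontin peak centred at most 2.5 kb from a TSS, with 95% Wilson intervals. Diamonds give the percentage among other protein-coding genes of like promoter GC content, and the dashed line gives the 17.1% of all protein-coding genes. The lipid kinase complex is highest with 5 of 7 genes and the ATG8 genes have 0 of 5.

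Peaks of this list favour some promoters over others, so the share of 38.8% was set beside that of like promoters. Among other protein-coding genes, the share with a peak rose from 1.12% at a promoter GC content of 35 to 40% to 25.7% at 60 to 65%. The autophagy genes had a median promoter GC content of 57.1%. Other genes within 2 percentage points of the GC content of each autophagy gene had a peak in 20.5% of cases, which would correspond to 10.04 of 49 genes. Autophagy promoters also held more CpG dinucleotides than most. Their median ratio of observed to expected CpG was 0.778 for genes with a peak and 0.712 for those without, against 0.756 for other genes with a peak and 0.454 for other genes without. Autophagy genes had many annotated start sites too, and 31 of the 49 had 5 or more, against 7800 of 21889 other protein-coding genes. Of the other genes with 5 or more, 27.0% had a peak, against 6.19% of those with 1. When like genes were required to match in GC content, CpG ratio and number of TSSs together, 29.8% of them had a peak, corresponding to 14.6 of 49 genes. This value lies inside the interval of the autophagy share, whereas the share matched on GC content alone lies below it. The latter depended on the peaks kept. With peaks at least 8-fold over input, 10 of 49 genes (20.4%, interval 11.5 to 33.6%) had one against 11.9% at like GC content, and among the peaks with the higher scores 8 genes (16.3%, 8.51 to 29.04%) against 11.5%. Both of these shares at like GC content lie inside the interval. The match on CpG was chosen after the data were seen. On the same match the lipid kinase genes would have had 2.11 peaks of 7 where 5 were found, and the ATG8 genes 1.66 of 5 where 0 were found.

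**Figure D2:**
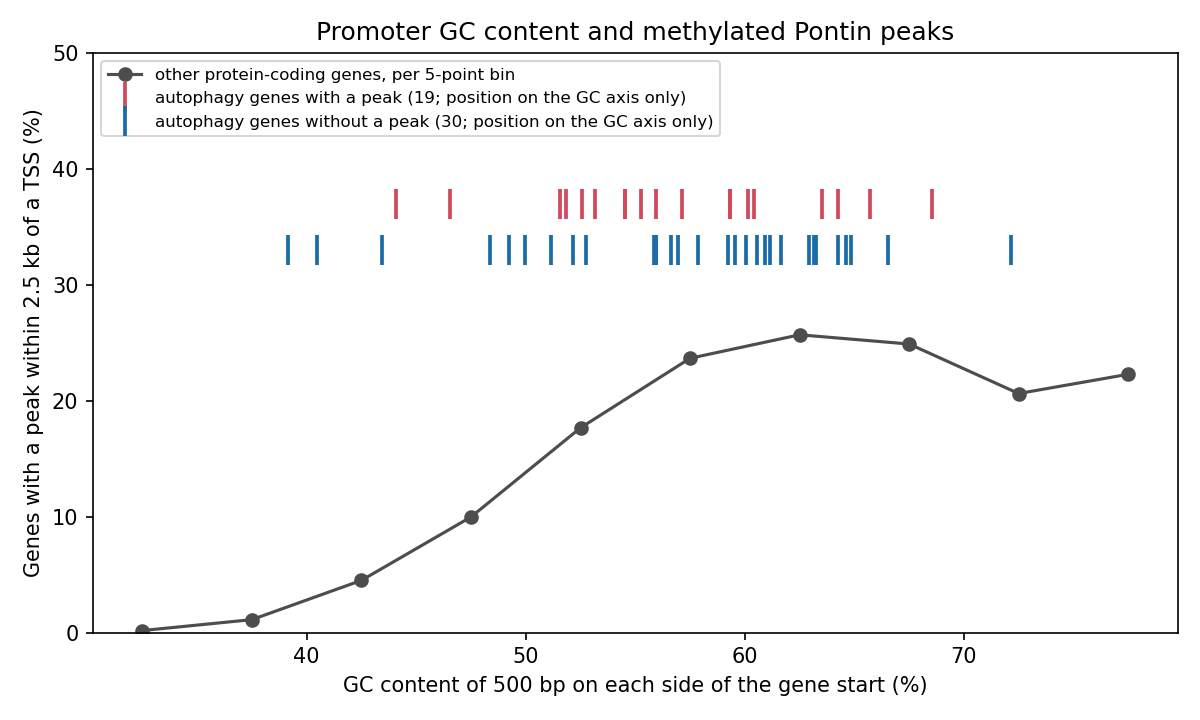
Line, percentage of other protein-coding genes with a methylated Pontin peak by promoter GC content (500 bp on each side of the gene start, in bins of 5 percentage points). Ticks mark the GC content of the 19 autophagy genes with a peak (red) and the 30 without (blue), and their height has no meaning. Both sets of ticks cover the range in which peaks were common among other genes.

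Sequence from 6 of the 19 peaks is shown because these peaks were among the 4 with the highest signal, as at Nbr1, Atg101 and Nrbf2, or stand for a feature described below. No sequence is shown for Pik3c3, the other of the 4. Ambra1 stands for a peak in repeat sequence, and Becn1 and Atg16l1 for peaks with a match to the FOXO sequence. Each stretch is read 5′ to 3′ on the strand of its gene in GRCm38 and leaves out exons that are not translated. Capitals mark matches to the FOXO sequence GTAAACA and to the CREB sequence TGACGTC on either strand, and stretches without capitals hold none of the sequences searched.
Nbr1, chr11:101551980-101552148: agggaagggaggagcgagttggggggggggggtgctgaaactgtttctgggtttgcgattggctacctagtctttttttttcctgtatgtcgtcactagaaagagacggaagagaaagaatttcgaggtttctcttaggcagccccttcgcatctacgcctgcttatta
Atg101, chr15:101284050-101284249: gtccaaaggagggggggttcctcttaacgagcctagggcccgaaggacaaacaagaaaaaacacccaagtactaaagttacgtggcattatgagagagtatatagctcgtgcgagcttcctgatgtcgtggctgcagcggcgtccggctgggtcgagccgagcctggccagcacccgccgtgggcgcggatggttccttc
Nrbf2, chr10:67285640-67285839: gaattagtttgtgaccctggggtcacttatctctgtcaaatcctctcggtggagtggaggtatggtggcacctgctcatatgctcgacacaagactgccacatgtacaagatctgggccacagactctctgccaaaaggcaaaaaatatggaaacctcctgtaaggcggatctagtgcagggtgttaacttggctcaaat
Ambra1, chr2:91729667-91729866: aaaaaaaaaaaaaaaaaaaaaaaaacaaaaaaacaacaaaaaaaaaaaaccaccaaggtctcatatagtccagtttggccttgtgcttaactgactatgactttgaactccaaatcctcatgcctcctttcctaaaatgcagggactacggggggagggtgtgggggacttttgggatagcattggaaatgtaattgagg
Becn1, chr11:101302287-101302403: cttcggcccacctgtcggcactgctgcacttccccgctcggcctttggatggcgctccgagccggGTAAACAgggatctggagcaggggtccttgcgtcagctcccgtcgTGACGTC
Atg16l1, chr1:87755380-87755579: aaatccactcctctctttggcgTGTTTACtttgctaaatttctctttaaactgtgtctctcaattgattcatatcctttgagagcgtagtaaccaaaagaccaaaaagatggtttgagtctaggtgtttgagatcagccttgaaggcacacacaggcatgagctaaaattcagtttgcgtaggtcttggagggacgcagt
The stretch of Atg101 holds 15 CpG dinucleotides and has a GC content of 58.5%, and that of Becn1 holds 11 and has 66.7%. The stretch of Ambra1 opens with a run of adenines, holds 1 CpG and has a GC content of 37.5%. The 6 peaks thus lie in promoter sequence of different kinds.

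Of the initiation genes, Atg101 alone had a peak at a TSS. It encodes a partner of ATG13 in the ULK1 complex. Its peak, chr15:101283910-101284390, was centred 122 bp upstream of a TSS, between genes. The deposited signal, the number of tags (aligned read positions) per 10000000, was 21.2, which equals 44.0 tags in the library (exact 95% Poisson interval, 31.99 to 59.1). The authors' fold over input was 27.4 and their fold over the surrounding 10 kb was 4.95. The peak list does not name the medium of this input, but its depth scaling matches the input of starved cells. For ATG13, the adaptor of the same complex, the nearest peak lay 19.2 kb away and was the one at the promoter of Ambra1. For the kinases Ulk2 and Ulk1 the nearest peaks lay 42.1 kb and 134 kb away, and for Rb1cc1, which encodes the scaffold FIP200, the distance was 1123 kb. All 4 of these nearest peaks were at promoters of other genes.

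The lipid kinase complex had the most complete set of peaks, all 5 within 500 bp of a TSS. Pik3c3 encodes the catalytic subunit VPS34, and its peak, centred 247 bp upstream of the TSS, had a signal of 20.2 and was 5.81-fold over input. Pik3r4 encodes VPS15, the regulatory subunit bound to VPS34. Its peak, chr9:105643115-105643595, was centred 154 bp downstream in an untranslated exon, with a signal of 17.8 and 46.1-fold over input. At Becn1, the gene of the scaffold Beclin 1, the peak chr11:101301923-101302403 was centred 43 bp downstream of a TSS, also in an untranslated exon. Its signal was 12.0, the lowest of the 5 peaks, yet its fold over input was 31.2. Nrbf2 encodes a component of the ATG14-containing complex. Its peak, chr10:67285500-67285980, lay 435 bp upstream with a signal of 19.5 and was 12.6-fold over input. Ambra1 encodes a Beclin 1-binding regulator. The peak chr2:91729527-91730007 lay 367 bp upstream of it with a signal of 17.8, and at 4.19-fold over input it was close to the authors' limit of 4-fold. Of this peak, 62.8% is marked as repeat sequence in the genome, the highest percentage of the 19. Whether repeat sequence had a part in that peak was not tested. The remaining members are Atg14, which directs the complex to autophagosomes, and Uvrag, which defines its endosomal form. Their nearest peaks were 739 kb and 163 kb away. The one nearest to Atg14, chr14:46820951-46821431, lay in an intron of Gmfb at that gene's promoter, with a signal of 16.6 and 8.60-fold over input.

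The proteins that bring lipid to the growing membrane had 4 peaks among 8 genes, with signals of 9.87 to 14.4. Wipi2 and Wipi1 encode phosphatidylinositol 3-phosphate binding proteins. Wipi2 had a peak at chr5:142630058-142630538 with a signal of 14.4 and 12.5-fold over input. It lay 705 bp downstream of the nearest TSS but 2600 bp downstream of the 5′ end of the gene. Wipi1 had the peak farthest from a TSS among the 19, chr11:109609677-109610157, 1515 bp downstream in an intron, with a signal of 9.87 and 8.51-fold over input. Wdr45, which encodes WIPI4, had a peak at chrX:7721768-7722248 with a signal of 12.0 and 15.6-fold over input. This peak lay 15 bp from one of the 32 annotated TSSs of the gene, 7675 bp downstream of its 5′ end. The assignment of the Wipi2 and Wdr45 peaks therefore rests on internal start sites. Atg2b encodes a lipid transfer protein. Its peak, chr12:105684829-105685309, lay 131 bp downstream of a TSS at a promoter shared with Gskip on the opposite strand, with a signal of 11.8 and 30.5-fold over input. No peak was within 40 kb of the others, which were Atg2a (47.9 kb), the lipid scramblase genes Atg9a (61.2 kb) and Vmp1 (42.4 kb), and Wdr45b (81.7 kb), the gene of WIPI3.

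Conjugation genes had the lowest median signal of the steps with a peak, 10.85. The 4 signals ran from 9.63 to 11.3, all below the first quartile of 12.5 of the promoter peaks of other genes, and none reached 8-fold over input. Atg3 encodes the E2-like enzyme that loads ATG8 proteins onto lipid. Its peak, chr16:45158815-45159295, had a signal of 11.3, was 4.88-fold over input and lay 270 bp downstream of a TSS, at a promoter shared with Slc35a5 on the opposite strand. Atg16l1 encodes the protein that brings the conjugation enzymes to the membrane, and its peak, chr1:87755240-87755720, lay 390 bp upstream with a signal of 11.1. At 4.09-fold over input it was the peak nearest to the authors' limit. Atg4c and Atg4d encode proteases that trim ATG8 proteins. The peak of Atg4c, chr4:99193644-99194124, lay 50 bp upstream with a signal of 10.6 and was 5.48-fold over input. That of Atg4d, chr9:21264775-21265255, lay 278 bp upstream with a signal of 9.63, the lowest of the 19, and was 6.23-fold over input. Of the 4 protease genes, Atg4b (16.1 kb) and Atg4a (436 kb) had no peak at a TSS. Nor did Atg7 (32.2 kb), the gene of the E1-like enzyme that both conjugation reactions need, Atg10 (203 kb), Atg12 (144 kb), Atg5 (798 kb) or Atg16l2 (552 kb).

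None of the 5 ATG8 genes had a peak at a TSS, although 3 of them lay where at least 25% of genes of like GC content had one. Map1lc3b, which encodes LC3B, came closest. The peak chr8:121580264-121580744 was centred 9.86 kb upstream of its TSS, in an intron of Gm20388, with a signal of 22.2 (46.1 tags, Poisson interval 33.8 to 61.5) and 5.73-fold over input. It is also within 2.5 kb of a TSS of Fbxo31. Chromosome 8 had the highest median peak signal of all chromosomes, 18.5, and the peak stood at 1.20 times that median. For Map1lc3a, Gabarapl2 and Gabarap the nearest peaks were 39.3, 70.5 and 89.9 kb away, and for Gabarapl1 the nearest was 1108 kb away. All of these were at promoters of other genes. In the paper, ChIP assays of chosen sites found more methylated Pontin in starvation at proximal and distal regions of Map1lc3b. The paper read its methylated Pontin ChIP-seq profiles of this locus, in normal and starved cells, in the same way. Its ChIP assays gave the same result for FOXO response elements of Bnip3 and Atg14. Regions below the limits of the peak calls are not in the list. A gene without a listed peak may therefore still hold methylated Pontin.

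Among the receptors, Nbr1 had the highest signal of the 19 peaks. NBR1 binds ubiquitinated cargo and ATG8 proteins. Its peak, chr11:101551980-101552460, was centred 14 bp from a TSS in an untranslated exon. It held 50.04 tags (Poisson interval, 37.1 to 66.0), a signal of 24.1, and was 62.3-fold over input and 6.78-fold over the surrounding 10 kb. Nbr1 shares this promoter with Brca1, a DNA repair gene on the opposite strand, so the peak cannot be given to one gene alone. Calcoco1 encodes a receptor for endoplasmic reticulum, and its peak, chr15:102722582-102723062, lay 644 bp upstream with a signal of 18.1 and 23.4-fold over input. Tax1bp1 encodes a ubiquitin-binding receptor. Its peak, chr6:52713740-52714220, lay 217 bp downstream in an intron with a signal of 15.9 and 4.57-fold over input. All 3 receptors with a peak had signals above 14.9, the median of promoter peaks of other genes. Sqstm1, the gene of p62, had its nearest peak at 15.0 kb, at the promoter of Mgat4b, and Optn had its nearest at 22.4 kb.

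The receptors for mitochondria had no peak within the limit. Bnip3 was just outside it, and its peak chr7:138906343-138906823 lay 2.90 kb downstream of the nearest TSS in an intron of Bnip3 itself, with a signal of 11.6 and 15.0-fold over input. It was the only peak inside 1 of the 30 genes without a peak at a TSS. Of the peaks inside the limit, the nearest to it was that of Wipi1 at 1515 bp. Bnip3l, the paralogue of Bnip3, and Fundc1, on the X chromosome, were far from any peak, at 576 and 1666 kb.

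Of the other factors, Ei24, which encodes a membrane protein of the endoplasmic reticulum, had the peak chr9:36796982-36797462, 51 bp downstream of a TSS, with a signal of 13 and 5.61-fold over input. Trp53inp1 encodes a p53-induced protein that binds LC3. Its peak, chr4:11155619-11156099, lay 572 bp upstream with a signal of 12.5 and 5.40-fold over input. Its paralogue Trp53inp2 had the nearest peak at 91.5 kb. For Tecpr1 and Epg5, whose products act when the autophagosome meets the lysosome, the distances were 31.95 and 165 kb.

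**Figure D3:**
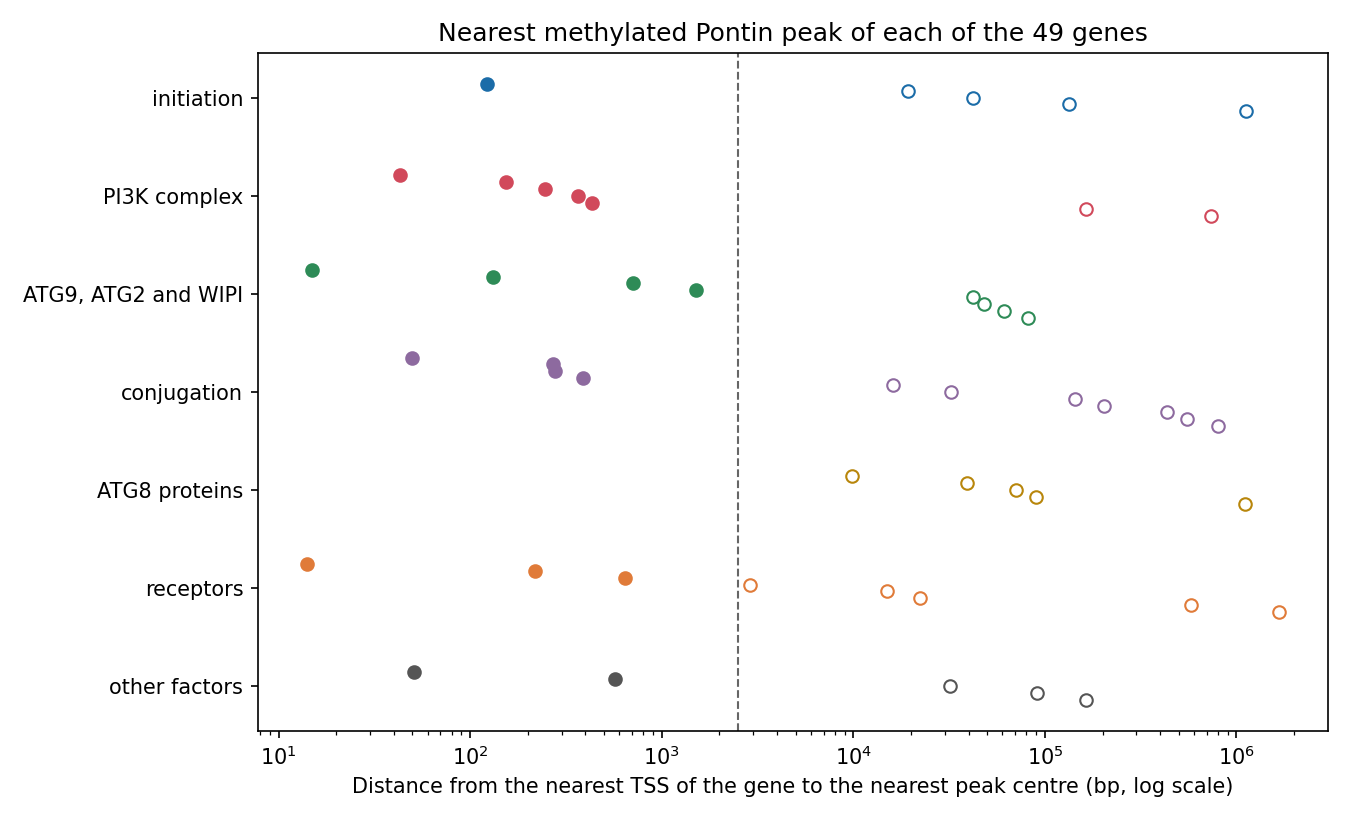
Distance from the nearest TSS of each of the 49 genes to the nearest methylated Pontin peak centre, on a log axis, by step. Filled points are the 19 genes with a peak within 2.5 kb (dashed line) and open points are the 30 genes without. Between 1515 bp (Wipi1) and 9.86 kb (Map1lc3b) lies a single gene, Bnip3 at 2.90 kb.

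Across the 30 genes without a peak at a TSS, the distance to the nearest peak had a median of 85.8 kb, and 12 were within 50 kb. With the genes that had a peak at a TSS included, 63.3% of the 49 genes had one within 50 kb. Among other protein-coding genes, counted the same way, it was 39.3%. These shares within 50 kb were not matched for promoter GC content, CpG or number of TSSs. In 23 of the 30 the nearest peak was at the promoter of another protein-coding gene. Most peaks of the list lie at such promoters, 3142 of 4311, so this count is not particular to autophagy genes. Limits of 1 kb and 5 kb moved the number of autophagy genes with a peak only from 19 to 18, without Wipi1, and to 20, with Bnip3.

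Among the 19 peaks the signals overlapped widely. The median was 13 (quartiles 11.55 and 17.95), against 14.9 (12.5 and 17.8) for 3142 peaks at other protein-coding genes and 14.2 for all peaks. By step, the median was 17.8 for the lipid kinase complex and 18.1 for the receptors, against 10.9 for conjugation and 11.9 for the ATG9, ATG2 and WIPI group. Signals of conjugation genes, from 9.63 to 11.3, all lay below those of the lipid kinase genes, from 12.0 to 20.2. The Poisson interval of each of these conjugation peaks nevertheless overlapped that of each lipid kinase peak. This held even for the lowest and highest of these signals, Atg4d (12.2 to 30.9 tags) and Pik3c3 (30.2 to 56.7 tags). Counting error limits the order within the list. The interval of Nbr1 overlapped those of 10 of the other 18 peaks, and any 2 neighbours in the order overlapped. The 8 whose intervals lay below that of Nbr1 were Becn1, Wdr45, Atg2b, Atg3, Atg16l1, Atg4c, Wipi1 and Atg4d. The signal of Nbr1 was above that of 96.7% of all peaks. The share of all peaks with an interval below that of Nbr1 was not counted directly. A peak with a signal of 12.3 has an interval up to 37.6 tags, which overlaps that of Nbr1 (from 37.1 tags). Of all peaks, 27.2% had a signal below 12.3. Whether these 8 stand out as a set was not tested.

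**Figure D4:**
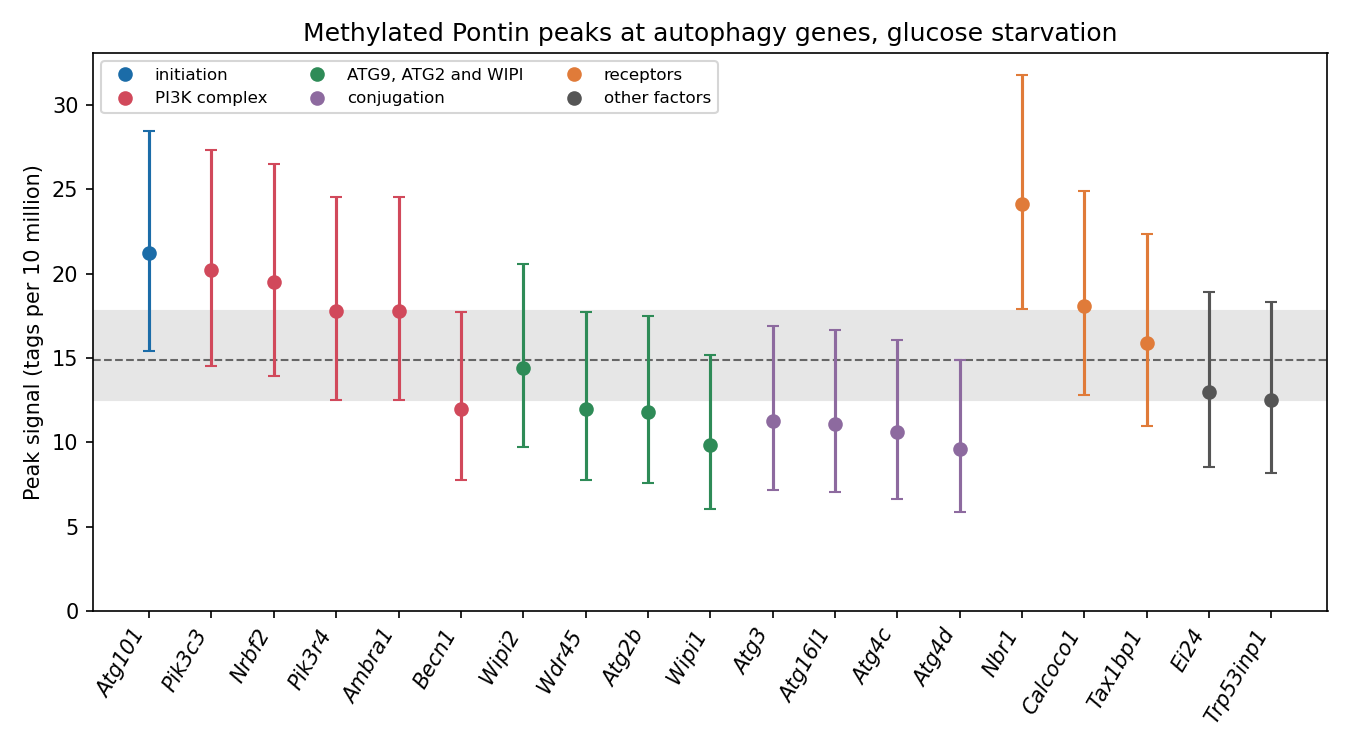
Signal of the 19 peaks at autophagy genes in tags per 10000000, by step, with exact 95% Poisson intervals. The dashed line and the grey band are the median and the quartiles of 3142 peaks at other protein-coding genes. All 4 conjugation genes lie below the band with Becn1, Wdr45, Atg2b and Wipi1, and Nbr1, Atg101, Pik3c3, Nrbf2 and Calcoco1 lie above it.

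Peak signal also differed by chromosome, from a median of 10.4 on the X chromosome to 18.5 on chromosome 8. Atg101 and Calcoco1 are on chromosome 15, with a median of 18.1, and stood at 1.17 times that median and at the median itself. Nbr1 stood at 1.79 times the median of chromosome 11, and the conjugation genes at 0.703 to 0.888 times that of theirs. Relative to their chromosomes, the autophagy peaks had a median of 1 and the peaks of other genes 1.03. The X chromosome also had few peaks, at 3.59% of its genes, and of its 3 autophagy genes Wdr45 had one while Atg4a and Fundc1 had none. The part of the chromosome in these signals was not tested.

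The fold over input gave another order than the signal. It ranged from 4.09 at Atg16l1 to 62.3 at Nbr1 with a median of 8.51, against 9.10 at other genes. Below 8-fold were 9 of the 19 peaks, while 10 reached it, beside 2412 of all 4311 peaks. The depth-scaled signal divided by the authors' fold gives the input level behind it, which was 0.501 to 5.51 tags. The 4 highest folds, at Nbr1, Pik3r4, Becn1 and Atg2b, all had the lowest of these levels, about 0.5 tags. Becn1 and Wdr45 had the same signal, 12.0, and differed between 31.2-fold and 15.6-fold with input levels of 0.501 and 1.001 tags. At such levels a single input tag would move the fold severalfold. The fold over the surrounding 10 kb, which does not use the input, ran from 4.12 at Atg3 to 7.56 at Pik3c3, with a median of 5.51 against 5.02 at other genes. By that measure Pik3c3, Nrbf2 and Nbr1 stood highest.

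**Figure D5:**
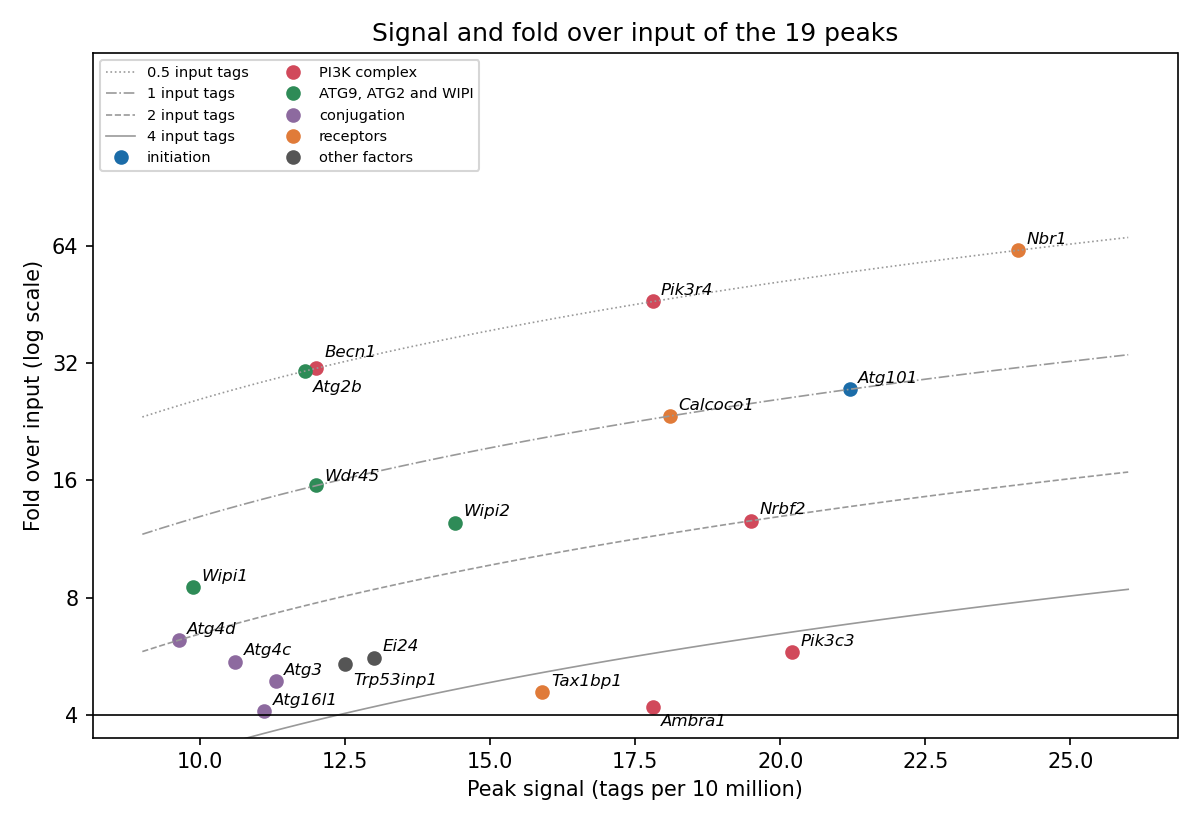
Fold over input (log axis) against signal for the 19 peaks, coloured by step. Grey curves join peaks with the same input level (0.5, 1, 2 or 4 tags) and the black line is the 4-fold limit of the authors. Nbr1, Pik3r4, Becn1 and Atg2b share the curve of 0.5 input tags at signals from 11.8 to 24.1.

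The peaks at autophagy genes were placed like those at other genes. The median distance to the nearest TSS was 247 bp, against 268.5 bp at other genes, and 15 of 19 (78.9%) lay within 500 bp, against 78.7%. Of the 19 peaks, 10 were upstream and 9 downstream. Another protein-coding gene had a TSS within 2.5 kb of 4 peaks (21.1%), against 17.9% of peaks at other genes. These were the peaks of Nbr1, Atg2b and Atg3, whose partners lie on the opposite strand, and that of Wdr45, which overlaps the gene model Gm45208.

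The study's question made FOXO sequences of interest. In the central 200 bp of the 19 peaks, the FOXO sequence GTAAACA was found on either strand at Atg16l1 only, against 2.04% of all peaks. Over the whole peak of 481 bp, a window added after the data were seen, it was found in 4 of the 19 (Atg16l1, Becn1, Trp53inp1 and Wdr45), which is 21.1%, against 4.26% of peaks at other promoters and 5.08% of all peaks. The median GC content of the 19 peaks was 51.4%, against 56.5% for peaks at other promoters and 53.0% for all peaks. These motif shares were not matched for GC content, and its part in them was not tested. Promoters of 3 genes are shown in part because they bear on whether the FOXO sequence and a peak go together, with the match in capitals.
Becn1, chr11:101302321-101302350: gctccgagccggGTAAACAgggatctggag
Wipi2, chr5:142627615-142627644: cttctaaacgtTGTTTACcagttctgaagg
Atg4b, chr1:93751392-93751421: ctcagtattttGTAAACAtgggtctccata
From 250 bp before to 50 bp after the gene start, GTAAACA was in 3 of 49 autophagy promoters (6.12%), against 3.05% of all protein-coding promoters. The match of Becn1, 52 bp before the gene start, lies inside its peak. That of Wipi2 lies 72 bp before the 5′ end of the gene, outside the peak, and Atg4b had a match with no peak at a TSS. Matches were therefore found with and without a peak beside them. A match is a description of the sequence and does not show that FOXO3a was bound.

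The sequence TCACGTG of the CLEAR element, which TFEB binds at lysosomal and autophagy genes, was in 5 of 49 autophagy promoters (10.2%, against 4.14% of all promoters), those of Atg3, Nrbf2, Trp53inp1, Gabarap and Epg5. Matches of the first 3, genes with a peak, and of the ATG8 gene Gabarap are shown for comparison, with the match in capitals.
Atg3, chr16:45158723-45158752: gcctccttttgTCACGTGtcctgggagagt
Nrbf2, chr10:67285473-67285502: agacccggctcaTCACGTGacagccgccgc
Trp53inp1, chr4:11156302-11156331: ccagtgccaggTCACGTGcgttagtgacaa
Gabarap, chr11:69991009-69991038: tcgccacccgcCACGTGAttctccgccctt
None of the 19 peaks held the sequence in its whole length, against 6.37% of peaks at other promoters, so the matches at Atg3, Nrbf2 and Trp53inp1 all lay outside the called peaks. CREB TGACGTC was in 7 of 49 promoters (14.3%, against 4.002% of all), which were Atg5, Atg10, Becn1, Bnip3l, Map1lc3a, Nrbf2 and Ulk2, and 2 of these genes had a peak, Becn1 and Nrbf2. In whole peaks it was found at Becn1, next to the FOXO match. E2F GCGGGAA was in 0 of 19 whole peaks, against 11.4% of peaks at other promoters. ETS CCGGAAG was in 6 whole peaks (Atg101, Atg16l1, Atg3, Becn1, Nbr1 and Wdr45), which is 31.6%, against 18.7% of peaks at other promoters. In the central 200 bp the direction was the opposite, with CCGGAAG in 0 of 19 peaks, against 5.35% of peaks at other promoters. The SP sequence GGGCGG was in 7 whole peaks, which is 36.8%, against 53.4%. In the central 200 bp, GGGCGG was in 5 of 19 peaks (26.3%), against 26.7% of peaks at other promoters. The antioxidant response sequence TGACNNNGC was in the centre of 1 peak, that of Tax1bp1, against 7.07% of all peaks. This last sequence can overlap TGACGTC, and the palindromes within TCACGTG and TGACGTC can match on both strands at once, and each peak or promoter was counted once. Shares of autophagy promoters were also above those of all promoters for ETS (20.4%, against 10.8%), SP (61.2%, against 43.0%) and TGACNNNGC (16.3%, against 12.5%). For E2F the share was below (2.04%, against 5.72%). With 19 peaks, 1 more or 1 fewer match moves any of the percentages of peaks by 5.26 points. Both TCACGTG and TGACGTC hold a CpG, and autophagy promoters held more CpG than most. The shares of promoters and of peaks with a match were not matched for CpG or GC content. The part of base composition in them was not tested.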

How the data were processed

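Wild-type MEFs were profiled by ChIP-seq for methylated Pontin with input controls, in 4 libraries. Of these, 1 was analysed, the methylated Pontin ChIP under glucose starvation. Per the labels and methods, the authors aligned reads to GRCm38 (mm10) with Bowtie2. They called peaks with HOMER 4.7.2 against an input, at a false discovery rate of 0.001. The list does not name the medium of this input, and the paper calls it control input. The median factor scaling the signal to its depth was 1.293. This matches the total that the paper gives for the input of starved cells. Each peak had to be 4-fold above both the input and the surrounding 10 kb, with a Poisson p-value no higher than 0.0001 in either comparison. The library had 20765512 tags, of which 0.65% lay in peaks, and the fragment length was 178 bp. Regions below these limits could not be examined. The deposited signal is tags per 10000000, and the authors also give a signal scaled to input depth. The deposited score ranks peaks. The deposited focus ratio is a fraction and entered no result. The folds are ratios, and the p-values Poisson p-values, that the authors computed against input and surroundings. The list has 1 further column of tags whose name points to no single library, and it was left out.

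Distances from peak centres to TSSs of GENCODE vM21 and sequences of GRCm38 were computed with Python 3.11.15, NumPy 2.4.6, pandas 2.3.3, SciPy 1.17.1 and pysam 0.24.0, and plotted with matplotlib 3.10.9. Promoter GC content was taken over 500 bp on each side of the 5′ end of the gene, although a peak could lie at any TSS. The genes of like GC content were those within 2 percentage points, and for CpG within 0.1. Tags were recovered from the signal and the library total. The procedures were tested on simulated data. The genes and lists were chosen with earlier results of these data known. The rule for naming gave full values to genes with a peak within 2.5 kb, to those with one within 10 kb or inside the gene and to Map1lc3b, Bnip3 and Atg14, and a distance to the others. Of the further autophagy genes, the 3 with the highest signal were named. No test was made, since peaks and genes of 1 library are not replicates. Alternatives covered distance limits, start sites, fold, score, matching and scaling.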

Additional observations from a re-analysis of the deposited data

How the results depend on the processing

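Under the other settings, 82 values stayed within their counting error or within the spread of the peaks and 32 moved. The ATG8 genes had 0 peaks under all 7 settings of distance, start site, fold and score. Only the limit of 5 kb and the distance to the nearest peak edge could have added a peak. The other settings only remove peaks or start sites, so a count of 0 had to stay. The number of autophagy genes with a peak ranged from 17 to 20 under the distance and start site settings. With only the 5′ end of each gene it was 17, without Wdr45 and Wipi2. At 8-fold over input or more, 10 of the 49 genes (20.4%) kept a peak, against 9.90% of other genes and 11.9% of those of like GC content, and the conjugation genes and the other factors had 0% each, while the lipid kinase genes kept 3 of 7. Among the peaks with the higher scores, 8 genes (16.3%) kept one, against 9.56% and 11.5%, with 0% for the conjugation genes, the other factors and the ATG9, ATG2 and WIPI group, and 4 of 7 for the lipid kinase genes. The share of other genes was 16.1% at 1 kb, 18.1% at 5 kb, 16.5% with protein-coding transcripts only and 15.6% with the 5′ end only, and the share at like GC content 19.5%, 21.7%, 19.9% and 19.1%. With GC content from 250 bp before to 50 bp after the start it was 18.98%, with the number of TSSs matched too 24.2%, and, in matches chosen after the data were seen, 27.1% with CpG and 29.8% with both. The median signal of peaks at other genes was 15.4 at 8-fold or more, 17.3 among the peaks with the higher scores (autophagy genes, 18.8) and 19.3 when scaled to input depth. As a ratio to the chromosome median, added after the data were seen, it was 1.03, and 1 for autophagy genes. From the nearest peak edge the median distance was 7 bp. No paired analysis was possible because there was 1 library per condition. Tag counts from 19.997 to 50.04 a peak limit the precision of single values.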

Other observations

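A list of 25 further autophagy genes, of mitophagy, selective autophagy of the endoplasmic reticulum, and fusion with the lysosome, was looked up in the same way. A peak within 2.5 kb of a TSS was found at 7 of them (28.0%, 95% Wilson interval 14.3 to 47.6%), against 22.8% of genes of like promoter GC content, a value inside the interval. The highest signals were at Rubcn (15.9), whose product Rubicon restrains the lipid kinase complex, Snap29 (14.9), a SNARE of autophagosome fusion, and Vps39 (14.7), a subunit of the HOPS tethering complex. The median of the 7 signals was 14, and all 7 peaks lay within 443 bp of a TSS.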
